A study of Mus musculus with 14 samples.

Results

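The genes described here are 35 of the unfolded protein response and the folding machinery of the endoplasmic reticulum (ER), out of 19938 genes measured in mouse pancreatic islets. They were listed by name, and each was read from the transcript cluster (the array's set of probes for one gene) annotated to it, or from the brightest where several were. All 35 were found. They fall into 15 chaperones and folding enzymes, 7 genes of ER-associated degradation (ERAD), 4 stress sensors with their transcription factors, 7 genes of the Atf4-Ddit3 branch, and Wfs1 and Sec61b, 2 other ER membrane proteins. RNA of isolated islets was hybridised to 14 Affymetrix Mouse Gene 1.0 ST arrays. Control mice gave 5 of the arrays, Pdx-1+/- mice gave 4, and IKK2-CApdx-1 mice (IKK2-CA from here on) gave 5. All mice were untreated, 11 weeks old and of a C57BL/6 and NMRI (1:1) background. Pdx-1+/- mice carried the driver allele Pdx-1-tTA, which makes them haploinsufficient for Pdx-1, the gene of a transcription factor that β-cells depend on. IKK2-CA mice carried the same driver, which switched on constitutively active IKK2, the kinase that activates NF-κB, in β-cells, and they were diabetic. Active IKK2 and the diabetes cannot be told apart here, and the labels give no genotype for the control mice beyond that name.

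The ER folds the proteins that a cell secretes, and the insulin-producing β-cell is among the cells that load it most. When unfolded proteins gather, the sensors Ern1 (IRE1), Eif2ak3 (PERK) and Atf6 signal to the nucleus: Atf6 and spliced Xbp1 raise chaperones and degradation genes, and PERK slows translation while raising Atf4, which acts on Ddit3 (CHOP), Trib3 and amino acid synthesis. Acinar cells, the enzyme-secreting cells of the exocrine pancreas, use the same machinery, so RNA of an islet preparation can hold ER genes of both.

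Promoter sequences are shown for 4 members that the results turn on, as the 250 bases before the RefSeq start on build GRCm38.p6, on the gene's strand. Capitals mark the fixed letters of a match to the ER stress response element (ERSE, CCAAT and CCACG with 9 bases of any kind between), the motif of Atf6 and Xbp1, or to the CARE motif of Atf4 (TGATGNAA). Hspa5 and Derl3 hold an ERSE, Asns holds a CARE match, and the Wfs1 window holds none of the motifs searched.
Hspa5, chr2:34771840-34772089, plus strand: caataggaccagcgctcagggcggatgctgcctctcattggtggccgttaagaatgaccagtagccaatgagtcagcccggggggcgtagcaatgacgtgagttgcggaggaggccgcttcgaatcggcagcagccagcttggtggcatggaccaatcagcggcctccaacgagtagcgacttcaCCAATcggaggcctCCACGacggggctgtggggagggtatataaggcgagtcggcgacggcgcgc
Derl3, chr10:75893148-75893397, plus strand: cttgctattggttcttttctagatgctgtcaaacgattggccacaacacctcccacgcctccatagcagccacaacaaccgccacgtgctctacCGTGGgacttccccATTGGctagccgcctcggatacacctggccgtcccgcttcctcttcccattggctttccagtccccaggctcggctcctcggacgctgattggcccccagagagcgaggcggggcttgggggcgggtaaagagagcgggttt
Asns, chr6:7693210-7693459, minus strand: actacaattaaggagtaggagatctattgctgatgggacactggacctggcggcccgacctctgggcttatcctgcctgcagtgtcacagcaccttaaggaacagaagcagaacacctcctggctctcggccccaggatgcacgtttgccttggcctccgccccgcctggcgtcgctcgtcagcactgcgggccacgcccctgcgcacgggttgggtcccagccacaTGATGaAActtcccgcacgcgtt
Wfs1, chr5:36988983-36989232, minus strand: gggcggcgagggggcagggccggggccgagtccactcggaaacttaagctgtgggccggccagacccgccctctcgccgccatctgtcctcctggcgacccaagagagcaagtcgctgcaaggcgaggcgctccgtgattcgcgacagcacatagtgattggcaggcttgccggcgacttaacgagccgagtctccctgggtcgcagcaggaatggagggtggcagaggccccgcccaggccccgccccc

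Promoters of 31 of the 35 members were in the RefSeq table, and Hyou1, Manf, Derl1 and Atf6 were not. The search covered 300 bases, from 250 before to 50 after the start, on both strands. ERSE stood in 9 of the 31, against 0.119% of the 32851 promoters in the table. These were Hspa5, Hsp90b1, Dnajc3, Pdia6, Calr, Canx and Creld2 among 13 chaperones, and Syvn1 and Derl3 among 6 ERAD genes. Their matches show how the spacer between the fixed ends varies from gene to gene.
Hspa5: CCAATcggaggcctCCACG
Hsp90b1, first match: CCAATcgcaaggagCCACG
Hsp90b1, second match: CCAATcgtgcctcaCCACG
Dnajc3: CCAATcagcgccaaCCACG
Pdia6: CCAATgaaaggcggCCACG
Calr: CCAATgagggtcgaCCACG
Canx: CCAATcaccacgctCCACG
Creld2: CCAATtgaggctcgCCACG
Syvn1: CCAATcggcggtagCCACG
Derl3: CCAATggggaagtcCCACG

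None of the 7 Atf4-Ddit3 genes held an ERSE. The shorter ERSE-II (ATTGG and CCACG with 1 base between) stood in Dnajb11 and Herpud1, against 0.0365% of all promoters. CARE stood in Atf3, Trib3, Chac1 and Asns, 4 of the 7 Atf4-Ddit3 genes, and in Herpud1, against 3.97% of all promoters. The motif UPRE (TGACGTGG) stood in 0 of the 31, against 0.676%. ERSE, ERSE-II and UPRE share an end in their letters, and no member had matches to more than 1 of these. A match describes the letters and is not a shown binding site, and a missing match says only that these letters are not in this window.

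The preparations were not pure endocrine tissue. The acinar protease gene Ctrb1 read 13.64 to 13.73, at the top of the arrays' range (13.64 to 13.73 over all genes). Of 24 acinar markers 14 read above 13 on every array, where a difference would hardly show, and 0 of 24 passed between groups by limma (0 also at an unadjusted p under 0.05), which says little about the acinar share. Of 16 β-cell markers all had a lower mean in IKK2-CA than in control islets, and 11 passed the limma test described below, where 1.56% of all genes were lower. These markers were chosen with earlier results of these data known, so this count and the β-cell score used below are no independent measure. The defining marker Ins2 averaged 12.64 in control, 12.62 in Pdx-1+/- and 12.52 in IKK2-CA islets. Pdx1 averaged 8.23, 7.14 and 6.67 in the same order, and Ikbkb, which encodes IKK2, 7.43, 7.41 and 7.68. The sources used here do not say whether probes of these genes fall on the changed allele or on the transgene. On Pdx-1+/- array 4 the intestinal genes Sis and Fabp2 reached 9.16 and 9.09, and on IKK2-CA array 5 the adipocyte gene Adipoq reached 10.60. Of 15 leukocyte markers 13 had a higher mean in IKK2-CA than in control islets. Itgax and Cd52 passed by limma, beside 2.25% of all genes, and 8 had an unadjusted p under 0.05, beside 15.7%. The pan-leukocyte gene Ptprc (CD45) read 6.84 to 7.47 in control, 6.88 to 7.42 in Pdx-1+/- and 7.54 to 9.24 in IKK2-CA islets, and the mean deviation of the 15 was −0.48 to −0.14, −0.36 to 0.02 and −0.28 to 1.43. Leukocyte markers moved with the IKK2-CA comparisons given here, and its part in them was not tested. Control array 3 had a smaller intestinal signal (Sis 6.05). Counts of members that passed are given with and without these arrays, and differences of single genes only in part.

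Most ER genes differed little between the genotypes. Only Wfs1, the ER membrane protein whose loss causes Wolfram syndrome with diabetes, passed the test, and it was lower in IKK2-CA than in control islets. That is 1 of 35 members, a share near the 2.25% of all 19938 genes that passed in that comparison, 1.56% lower. The test was limma on log2 signals, with the adjusted p of Benjamini and Hochberg over all genes and a threshold of 0.05. An unadjusted p under 0.05 was found for 2 members, beside 15.7% of all genes. In Pdx-1+/- against control 0 of 35 passed, beside 0.0953% of all genes, and 5 had an unadjusted p under 0.05, beside 4.71%. Without Pdx-1+/- array 4 that comparison had 2 at an unadjusted p under 0.05, 0 of them higher, beside 3.28%, and 0 passed. In IKK2-CA against Pdx-1+/- 0 of 35 passed, beside 0.0752% of all genes, and 1 had an unadjusted p under 0.05, beside 7.02%. The median log2 difference of the 35 was 0.04 in IKK2-CA against control, 0.01 in Pdx-1+/- against control and −0.02 in IKK2-CA against Pdx-1+/-. Over all genes the medians were −0.012, −0.0049 and −0.015. In the same order 19, 19 and 17 of the 35 differences were above 0, beside 46.4%, 48.2% and 45% of all genes. No member's groups were free of overlap in any comparison, beside 4.2%, 1.88% and 2.43% of all genes.

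**Figure D1:**
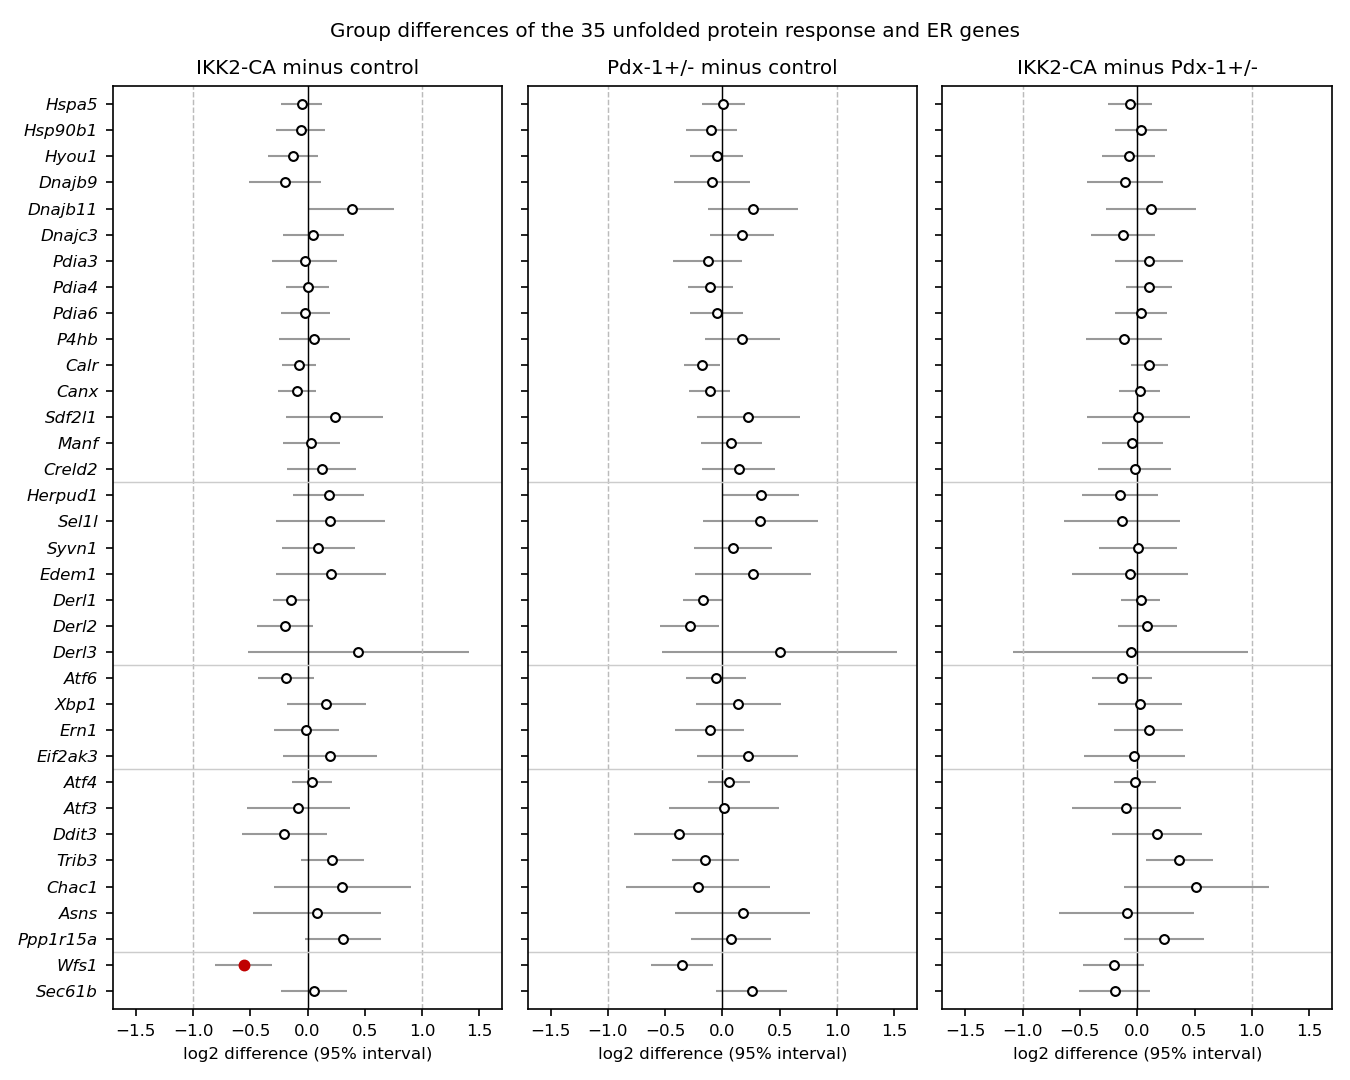
Log2 difference of each of the 35 genes with its 95% interval (moderated, limma), in IKK2-CA minus control, Pdx-1+/- minus control and IKK2-CA minus Pdx-1+/- islets, with dashed lines at a 2-fold difference. The filled point is Wfs1 (−0.56), the gene that passed the test, and the interval of Derl3 crosses a dashed line in each panel.

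Each interval bounds the group difference in the bulk signal of 1 gene, given the spread between these arrays and without adjustment over genes. It does not bound a change in β-cells alone, as the RNA also holds ER genes of acinar cells. In IKK2-CA against control the 95% interval lay within 2-fold for 34 of 35 members, Derl3 being the exception, and within 1.5-fold for 25. In Pdx-1+/- against control the counts were 34 and 24, and in IKK2-CA against Pdx-1+/- they were 33 and 30, where Chac1 also reached 2-fold. The labels do not say that the arrays are separate mice, so p-values measure the spread between these samples, which may be technical.

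Wfs1 (transcript cluster 10529605) was 1.47-fold lower in IKK2-CA than in control islets, and Pdx-1+/- islets lay between them. The control arrays read 8.82, 8.61, 9.002, 9.26 and 8.88 (mean 8.91 ± 0.24, SD, n = 5). The Pdx-1+/- arrays read 8.62, 8.61, 8.64 and 8.37 (8.56 ± 0.13, SD, n = 4), and the IKK2-CA arrays 8.37, 8.37, 8.21, 8.64 and 8.18 (8.35 ± 0.18, SD, n = 5). IKK2-CA array 4 alone reached into the control range, just above control array 2, and the other IKK2-CA arrays lay below every control array. The log2 difference of IKK2-CA minus control was −0.56 (SE 0.12, 95% interval −0.81 to −0.31, limma adjusted p = 0.025). Pdx-1+/- minus control was −0.35 (SE 0.12, 95% interval −0.62 to −0.09, limma adjusted p = 0.822), and did not pass. The step from Pdx-1+/- to IKK2-CA was −0.21 (95% interval −0.47 to 0.06, limma adjusted p = 0.842) and did not pass. With 1 array left out the IKK2-CA call stood in 8 of 14 fits, with log2 −0.63 to −0.47 and limma adjusted p from 0.00986 to 0.0826. It was lost without control 3, 4 or 5 or IKK2-CA 2, 3 or 5 (limma adjusted p = 0.0826, 0.0662, 0.0571, 0.0501, 0.0724 and 0.0573).

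Wfs1 followed the β-cell markers from array to array, also within groups. A β-cell score, the mean deviation of 16 markers from their mean over the arrays, ran from 0.14 to 0.94 in control, −0.44 to −0.0047 in Pdx-1+/- and −0.95 to 0.04 in IKK2-CA islets. Control 2, lowest in Wfs1 among the controls, had the lowest control score (0.14). Pdx-1+/- 4 (−0.44) and IKK2-CA 5 (−0.95) were likewise lowest in their groups in both, and IKK2-CA 4, with the highest Wfs1 of its group, had the highest score (0.04). In a fit of the 3 group means and the score, chosen after seeing the data, Wfs1 rose by 0.53 log2 per unit of score (SE 0.10, limma adjusted p = 0.0127). It was the 1 of 35 members whose slope passed, a share near the 2.39% of all genes (1.93% rising). Positive slopes were not particular to Wfs1. Hsp90b1 (0.38), Dnajb9 (0.41), Pdia3 (0.41), Pdia4 (0.28) and Derl2 (0.34) also rose at an unadjusted p under 0.05 by limma, and did not pass. The Wfs1 call was lost without control 2 (limma adjusted p = 0.0599) or IKK2-CA 4 (0.105). Without IKK2-CA 5 the count was 5, beside 7.97% of all genes, with Hsp90b1, Pdia3 and Pdia4 added among those that rose and Dnajb11 as 1 that fell. With the score in the fit the IKK2-CA minus control difference of Wfs1 was 0.05 (limma adjusted p = 0.9999), in a fit where 0 of all genes passed. The part of the β-cell markers in the Wfs1 difference was not tested beyond these values, and in bulk RNA fewer cells of a type and less RNA per cell cannot be told apart.

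**Figure D2:**
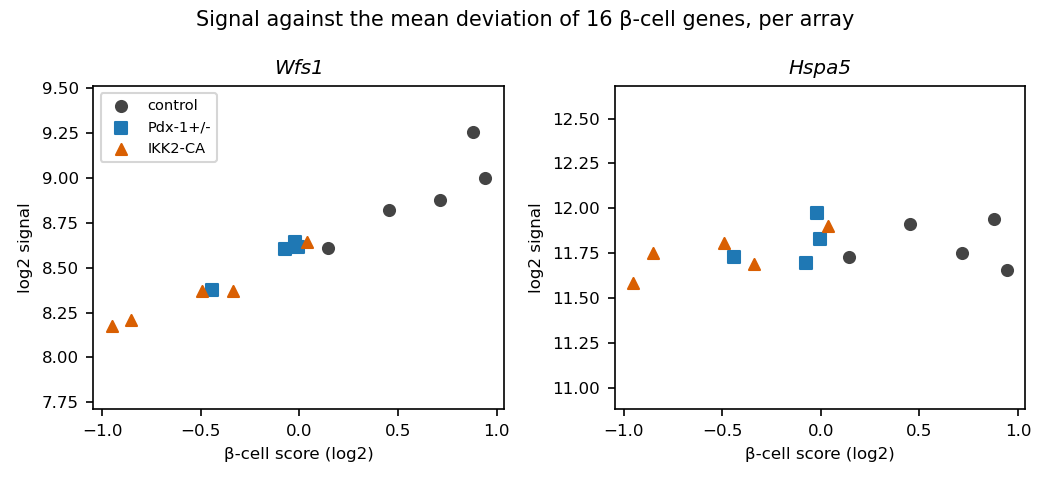
Log2 signal of Wfs1 and Hspa5 (vertical) on each of the 14 arrays against the array's β-cell score, the mean log2 deviation of 16 β-cell markers (horizontal), with the same vertical span in both panels. Wfs1 runs from 8.18 on IKK2-CA array 5 to 9.26 on control array 4 along the score, while Hspa5 stays between 11.58 and 11.97.

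None of the 15 chaperones and folding enzymes passed in any comparison by limma, and their differences were small. At an unadjusted p under 0.05 stood Dnajb11 in IKK2-CA against control, Calr in Pdx-1+/- against control and 0 in IKK2-CA against Pdx-1+/-. In the same order the shares of all genes were 15.7%, 4.71% and 7.02%. Hspa5 (BiP), the main chaperone of the ER lumen and the usual readout of ER stress, read 11.91, 11.73, 11.65, 11.94 and 11.75 on the control arrays. It read 11.83, 11.70, 11.97 and 11.73 in Pdx-1+/- and 11.81, 11.69, 11.75, 11.90 and 11.58 in IKK2-CA islets. The 3 sets overlapped almost fully. IKK2-CA minus control was −0.05 (95% interval −0.23 to 0.13), so a rise or fall of the bulk Hspa5 signal by 1.5-fold lay outside the interval. Hsp90b1 (GRP94) averaged 11.43 in control, 11.34 in Pdx-1+/- and 11.37 in IKK2-CA islets, and Hyou1, which recharges BiP with nucleotide, 9.96, 9.90 and 9.83. All 15 intervals of IKK2-CA minus control lay within 2-fold (−0.51 to 0.76), and all 15 of IKK2-CA minus Pdx-1+/- within 1.5-fold.

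**Figure D3:**
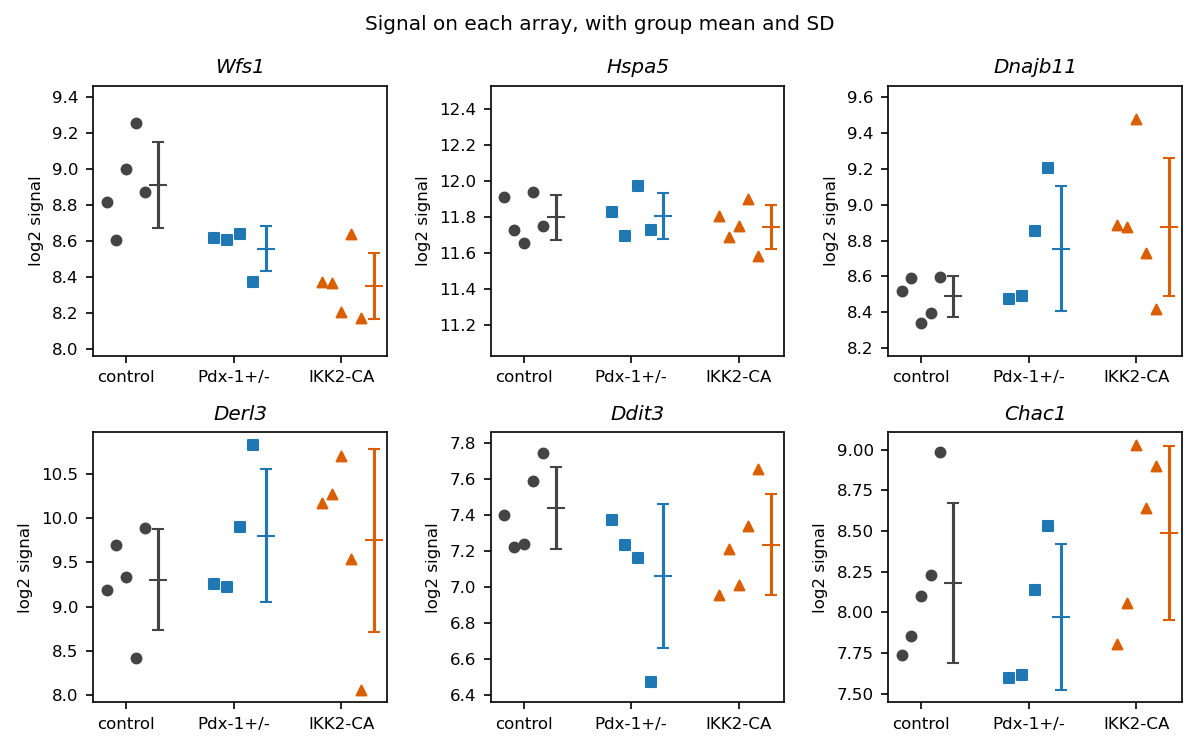
Log2 signal (vertical) of 6 genes on each array, as points for 5 control, 4 Pdx-1+/- and 5 IKK2-CA arrays, with the group mean and SD beside them. Wfs1 is lower in IKK2-CA islets, Hspa5 overlaps in all groups (11.58 to 11.97), and Derl3 spans 8.05 to 10.83 within and across groups.

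Dnajb11 (ERdj3), a BiP co-chaperone, had the largest difference among the chaperones. The controls read 8.52, 8.59, 8.34, 8.40 and 8.60, the Pdx-1+/- arrays 8.48, 8.49, 8.85 and 9.20, and the IKK2-CA arrays 8.89, 8.88, 9.47, 8.73 and 8.42. Of the IKK2-CA arrays 4 lay above every control, and array 5 lay inside the control range. The IKK2-CA minus control difference was 0.39 (SE 0.17, 95% interval 0.02 to 0.76, limma adjusted p = 0.293). With both Pdx-1+/- array 4 and IKK2-CA array 5 left out it was 0.50 (limma adjusted p = 0.0748). The other J-domain co-chaperones Dnajb9 (ERdj4) and Dnajc3 (p58IPK) differed by −0.20 and 0.05. Sdf2l1, which binds ERdj3, averaged 9.91 ± 0.20 in control (SD, n = 5), 10.14 ± 0.41 in Pdx-1+/- (SD, n = 4) and 10.15 ± 0.40 in IKK2-CA islets (SD, n = 5).

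The 4 protein disulphide isomerases among the 35, which form and reshuffle disulphide bonds, differed by at most 0.17 in any comparison. Pdia4 read 10.17 to 10.41 in control, 9.98 to 10.31 in Pdx-1+/- and 10.15 to 10.50 in IKK2-CA islets, and its IKK2-CA minus control difference was −0.0007. For Pdia3, Pdia6 and P4hb that difference was −0.03, −0.02 and 0.06. The lectin chaperones Calr and Canx, which hold glycoproteins until they fold, differed by −0.07 and −0.09. In Pdx-1+/- minus control Calr differed by −0.18 (SE 0.07, 95% interval −0.34 to −0.02, limma adjusted p = 0.999), and its arrays overlapped (10.66 to 10.86 against 10.82 to 11.02). Manf, an ER-resident factor that protects β-cells, and Creld2, an ER stress-induced chaperone, differed by 0.03 and 0.12 between IKK2-CA and control islets.

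Of the ERAD genes 0 of 7 passed by limma in any comparison. At an unadjusted p under 0.05 there were 0 in IKK2-CA against control, 3 in Pdx-1+/- against control and 0 in IKK2-CA against Pdx-1+/-. The shares of all genes were 15.7%, 4.71% and 7.02%. The 3 went both ways, with Herpud1 higher and Derl1 and Derl2 lower in Pdx-1+/- islets. Herpud1, an ER membrane protein of the degradation complex, read 11.03, 11.18, 11.17, 10.94 and 11.32 on the control arrays and 11.21, 11.26, 11.38 and 12.01 on the Pdx-1+/- arrays. Pdx-1+/- array 4 was far above the others, array 3 lay just above the highest control, and arrays 1 and 2 lay inside the control range. The difference was 0.34 (SE 0.15, limma adjusted p = 0.999). Derl1 and Derl2, derlins that help move misfolded proteins out of the ER, differed in Pdx-1+/- minus control by −0.17 and −0.29 (both limma adjusted p = 0.999).

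Derl3, a derlin strongly expressed in secretory tissues, varied the most of the 35. The controls read 9.19, 9.70, 9.34, 8.41 and 9.89, the Pdx-1+/- arrays 9.25, 9.23, 9.91 and 10.83, and the IKK2-CA arrays 10.18, 10.28, 10.70, 9.53 and 8.05. Its lowest and its highest value of all 14 arrays, 8.05 on IKK2-CA 5 and 10.83 on Pdx-1+/- 4, fell on the arrays with adipocyte and intestinal genes. IKK2-CA minus control was 0.44 (SE 0.45, 95% interval −0.52 to 1.41), an interval too wide to bound a 2-fold change. Without those 2 arrays the difference of Derl3 was 0.87 (SE 0.29, limma adjusted p = 0.128). On all 14 arrays Sel1l and Syvn1, which form the ubiquitin ligase of ERAD, differed by 0.20 (95% interval −0.28 to 0.67) and 0.09 (95% interval −0.23 to 0.41). Edem1, a lectin that delivers glycoproteins to it, differed by 0.21 (95% interval −0.27 to 0.68).

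None of the 4 sensors and transcription factors passed in any comparison by limma, and 0 had an unadjusted p under 0.05. Of all genes 15.7% had one in IKK2-CA against control, 4.71% in Pdx-1+/- against control and 7.02% in IKK2-CA against Pdx-1+/-. Xbp1 read 11.65, 11.41, 11.63, 11.12 and 11.77 on the control arrays, 11.72, 11.32, 11.68 and 11.90 in Pdx-1+/- and 11.93, 11.79, 11.76, 11.81 and 11.11 in IKK2-CA islets. Of the IKK2-CA arrays 3 lay above every control and array 5 lay below every control, giving a difference of 0.16 (95% interval −0.18 to 0.51). The signal of the gene does not separate spliced from unspliced Xbp1. Ern1, Eif2ak3 and Atf6 differed between IKK2-CA and control islets by −0.01, 0.20 and −0.19. Sec61b, a subunit of the translocon through which proteins enter the ER, differed by 0.06, and in Pdx-1+/- against control by 0.25 (SE 0.14, 95% interval −0.05 to 0.56).

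In the Atf4-Ddit3 branch 0 of 7 passed in any comparison by limma. At an unadjusted p under 0.05 there was 1, Trib3 in IKK2-CA against Pdx-1+/-, beside 7.02% of all genes. There were 0 in IKK2-CA against control, beside 15.7%, and 0 in Pdx-1+/- against control, beside 4.71%. Atf4, the transcription factor of the branch, averaged 8.41 ± 0.16 in control (SD, n = 5), 8.46 ± 0.09 in Pdx-1+/- (SD, n = 4) and 8.44 ± 0.09 in IKK2-CA islets (SD, n = 5). Ddit3, the pro-apoptotic factor CHOP, read 7.40, 7.22, 7.24, 7.59 and 7.75 in control, 7.37, 7.24, 7.17 and 6.47 in Pdx-1+/- and 6.96, 7.21, 7.01, 7.34 and 7.66 in IKK2-CA islets. Of the IKK2-CA arrays 3 lay below every control, Pdx-1+/- array 4 was the lowest of all, and no difference passed. IKK2-CA minus control was −0.20 (95% interval −0.58 to 0.17), and Pdx-1+/- minus control −0.38 (95% interval −0.77 to 0.02). Atf3, an early stress factor, differed between IKK2-CA and control islets by −0.08 (95% interval −0.53 to 0.37).

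Trib3, a pseudokinase induced through Atf4, had the lowest p of IKK2-CA against Pdx-1+/-. The Pdx-1+/- arrays read 5.94, 6.13, 6.32 and 6.25, the IKK2-CA arrays 6.29, 6.65, 6.48, 6.35 and 6.87, and the controls 6.17, 6.32, 6.21, 6.16 and 6.69. Of the IKK2-CA arrays 4 lay above every Pdx-1+/- array. The difference was 0.37 (SE 0.14, 95% interval 0.08 to 0.66, limma adjusted p = 0.562). Chac1, which degrades glutathione, read 7.74, 7.86, 8.10, 8.23 and 8.99 in control, 7.60, 7.62, 8.14 and 8.53 in Pdx-1+/- and 7.80, 8.06, 9.03, 8.64 and 8.90 in IKK2-CA islets. Its values spread widely inside each group, and IKK2-CA minus Pdx-1+/- was 0.52 (SE 0.29, 95% interval −0.11 to 1.15). Ppp1r15a (GADD34), which ends the translation block, differed by 0.31 between IKK2-CA and control islets (SE 0.16, 95% interval −0.03 to 0.64, limma adjusted p = 0.37). Asns, asparagine synthetase, differed by 0.08 (95% interval −0.47 to 0.64), with IKK2-CA array 5 at 10.51 and the other arrays of its group at 11.61 to 11.90.

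Of 156 other genes of the pathway, 1 passed in IKK2-CA against control, beside 2.25% of all genes. Sec16b, a scaffold of ER exit sites, was lower by 0.53 log2 (7.32 ± 0.23 in control, 6.79 ± 0.18 in IKK2-CA islets, SD, n = 5 each, limma adjusted p = 0.0479), and its groups did not overlap (6.954 to 7.55 against 6.51 to 6.947). In all 24 of the 156 had an unadjusted p under 0.05 (10 higher and 14 lower in IKK2-CA islets), beside 15.7% of all genes. Groups did not overlap for 4, beside 4.2%. None of 26 other folding and oxidation genes, 21 other ERAD genes, 30 translocation and N-glycosylation genes, 32 other Atf4 targets and 24 other sensors and regulators passed by limma in that comparison, with 3, 2, 2, 3 and 6 at an unadjusted p under 0.05. Sec16b was the 1 of 23 ER to Golgi transport genes that passed, and 8 of the 23, Sec16b included, had an unadjusted p under 0.05, each with a negative difference. Among these were the coat components Sec23a (−0.28), Sec24d (−0.26) and Sec31a (−0.24), the coat GTPases Sar1a (−0.15) and Sar1b (−0.32), and Golgb1 (−0.50), and these did not pass. The oxidase Ero1b, which passes oxidising power to the disulphide isomerases and is also among the 16 β-cell markers, differed by −0.54 (SE 0.14, limma adjusted p = 0.0617). In Pdx-1+/- against control and in IKK2-CA against Pdx-1+/- 0 of 156 passed by limma. At an unadjusted p under 0.05 there were 2 and 7, beside 4.71% and 7.02% of all genes. The other Atf4 targets had the largest median of these lists, 0.20 in IKK2-CA against control (25 of 32 positive) and 0.16 in Pdx-1+/- against control (26 of 32 positive), beside 46.4% and 48.2% of all genes positive, comparisons that share the control arrays.

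Some arrays stood at the end of their group for many of the genes. IKK2-CA array 5 was the lowest of its group for 21 of the 35 genes, 9 of 15 chaperones and 6 of 7 ERAD genes among them. Pdx-1+/- array 4 was the highest of its group for 18, and control array 5 for 22. The mean deviation of the 7 ERAD genes was −0.50 on IKK2-CA 5, 0.51 on Pdx-1+/- 4 and −0.36 on control 4, and between −0.23 and 0.31 on the others. That of the Atf4-Ddit3 genes was 0.15 on IKK2-CA 5 and −0.08 on Pdx-1+/- 4, a mean over genes that went both ways. Asns was lowest of its group on IKK2-CA 5 and highest on Pdx-1+/- 4 (12.15), while Ddit3 was highest of its group on IKK2-CA 5 and lowest on Pdx-1+/- 4.

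**Figure D4:**
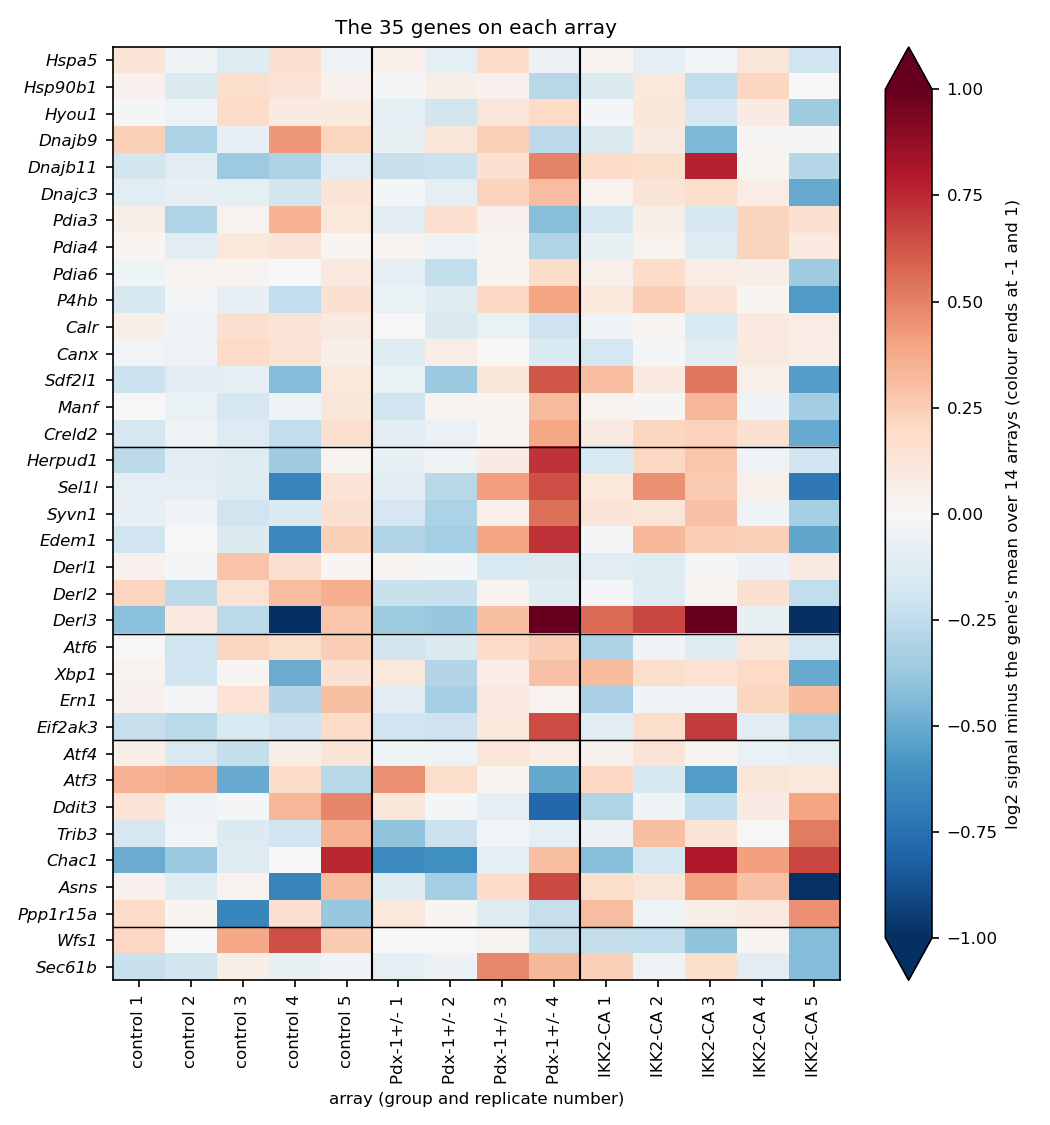
Log2 signal of each gene (rows, in the order chaperones and folding, ERAD, sensors, Atf4-Ddit3 branch, other) minus its mean over the 14 arrays (columns, by group), in colours that end at −1 and 1. IKK2-CA array 5 is low over most chaperone and ERAD rows, where it is the lowest of its group for 9 of 15 and 6 of 7, and Pdx-1+/- array 4 is high over most ERAD rows, where it is the highest for 5 of 7.

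The same arrays stood at the ends of an acinar score. This score, the mean deviation of 24 acinar markers, was lowest on IKK2-CA 5 (−0.41) and highest on Pdx-1+/- 4 (0.25), with the others at −0.20 to 0.22. Bhlha15 (Mist1), a transcription factor of secretory acinar cells, ran from 8.40 to 10.53, Ptf1a from 6.83 to 9.33 and Rbpjl from 6.88 to 9.42, while the 14 markers above 13 on every array have little room to move. The protease gene Ctrc had the widest range of the 24 (8.83 to 12.93), and the amylase gene Amy1 ran from 8.97 to 10.25. In a fit of the 3 group means and the score, chosen after seeing the data, 11 of the 35 genes rose with the score and 0 fell by limma, beside 1.73% of all genes (1.19% rising and 0.542% falling). Derl1 and Ddit3 had negative slopes, −0.41 and −0.88, with an unadjusted p under 0.05 that did not pass.

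The genes that rose were Dnajb11, Dnajc3, P4hb, Sdf2l1, Manf and Creld2 among the chaperones, Sel1l, Syvn1, Edem1 and Derl3 in ERAD, and Asns. Derl3 rose by 3.81 log2 per unit of score (SE 0.51, limma adjusted p = 0.00734) and Asns by 2.10 (SE 0.34, limma adjusted p = 0.0119). Sel1l and Edem1 rose by 1.80 and 1.79. Hspa5 had a slope of 0.20 (limma adjusted p = 0.595), Hsp90b1 of −0.29, Calr of −0.27 and Canx of −0.23, so the most classical chaperones did not pass. The ERSE stood both in genes that rose (Dnajc3, Creld2, Syvn1, Derl3) and in genes that did not pass (Hspa5, Hsp90b1, Pdia6, Calr, Canx), and of the 4 Atf4-Ddit3 genes with a CARE match Asns was the 1 that rose. Of the 156 other pathway genes 20 rose, 8 of them among the 32 other Atf4 targets, such as Psat1 and Phgdh of serine synthesis and Fgf21.

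This relation rests on the 2 arrays at its ends. Without Pdx-1+/- 4 and IKK2-CA 5, which are also the 2 farthest from the median score, 0 of 35 passed, as did 0% of all genes by limma. Leaving out IKK2-CA 5 alone also gave 0, and leaving out Pdx-1+/- 4 alone gave 7. Without both arrays the 11 slopes stayed positive (0.70 to 2.87). These genes were picked for positive slopes in a fit that holds the same remaining arrays, so their sign is no separate support. With the 3 acinar transcription factors alone as the score 15 members passed, beside 6.96% of all genes, and with Ctrc taken out of the score also 15, beside 5.92%. Markers of several other cell types ran the other way. By limma 3 of 9 adipocyte markers (Adipoq, Lipe and Retn), 1 of 8 endothelial (Plvap) and 1 of 7 plasma cell markers (Irf4) fell with the score. All 8 endothelial, 15 leukocyte and 6 alpha and delta slopes were negative, the last 2 lists with 0 past the threshold. Of 11 intestinal slopes 10 were positive, and 0 passed. The part of each of these cell types in the ER gene values was not tested.

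**Figure D5:**
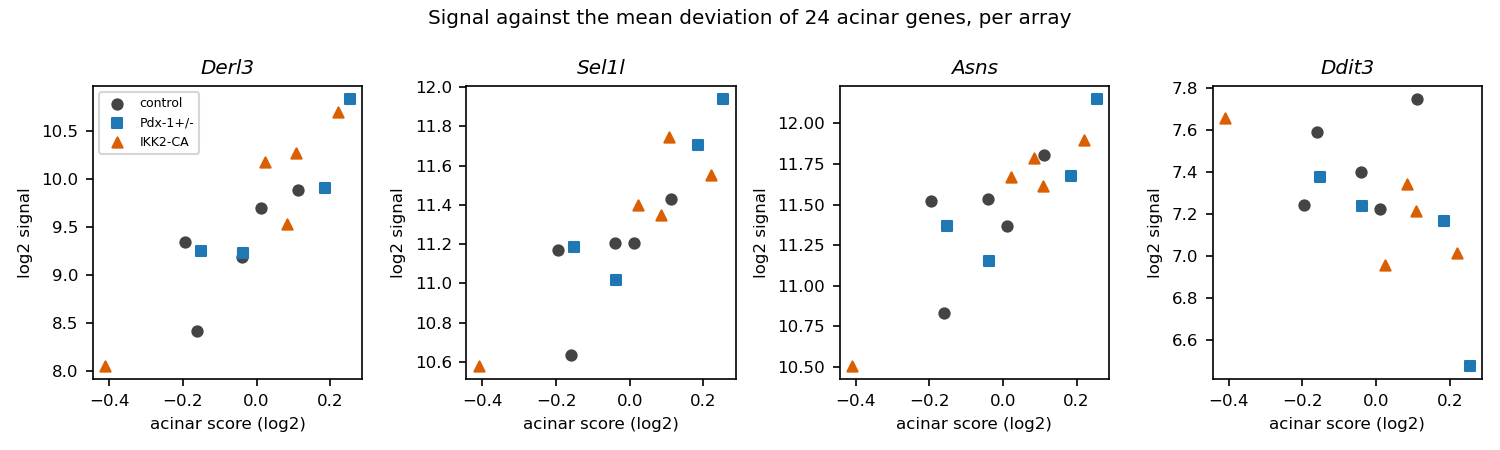
Log2 signal of Derl3, Sel1l, Asns and Ddit3 (vertical) on each of the 14 arrays against the array's acinar score, the mean log2 deviation of 24 acinar markers (horizontal). IKK2-CA array 5 is at the left end (−0.41) and Pdx-1+/- array 4 at the right end (0.25), and Derl3 runs from 8.05 to 10.83 between them.

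The comparison of IKK2-CA with Pdx-1+/- islets, which share the driver, depended on these arrays for its signs. Without both, 17 of the 35 members changed sign, 24 were positive, and the median moved from −0.02 to 0.08. Derl3 went from −0.06 to 0.71, Sdf2l1 from 0.01 to 0.35, Asns from −0.09 to 0.34 and Creld2 from −0.02 to 0.22. Still 0 of 35 passed by limma (lowest adjusted p 0.51, Dnajb11), and 7, all higher in IKK2-CA islets, had an unadjusted p under 0.05, beside 9.47% of all genes. In IKK2-CA against control the same exclusion moved the median from 0.04 to 0.12 and left Wfs1 as the 1 member that passed (limma adjusted p = 0.0409). With control array 3 left out as well, Wfs1 was −0.49 and did not pass (limma adjusted p = 0.112), nor without IKK2-CA 5 alone (limma adjusted p = 0.0573). At an unadjusted p under 0.05 stood 10 members, 7 of them higher in IKK2-CA islets, beside 18% of all genes. The acinar score as a covariate, on all 14 arrays, left Wfs1 at −0.55 in IKK2-CA against control (limma adjusted p = 0.0251) and Dnajb11 at 0.31 (limma adjusted p = 0.122).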

How the data were processed

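Each deposited value is the log2 signal of 1 transcript cluster. The authors summarised the probes by RMA (robust multichip average) with Affymetrix Expression Console, per the submitters' processing notes. For its version, settings and annotation build the sources used here give nothing, and the log base was read from the values. Of 35556 clusters 21789 carried 1 gene symbol, which gave 19938 genes. For the 999 genes with several clusters the brightest was kept (among the members Dnajc3, Pdia4 and Sec61b). One linear model with a mean for each of the 3 groups was fitted over the 14 arrays in R 4.3.3 (limma 3.58.1, functions lmFit and eBayes; 11 residual and 3.46 prior degrees of freedom), with Benjamini-Hochberg adjustment over all genes and a threshold of 0.05. The fits were tested on simulated data. A log2 difference of 1 is a fold of 2, and the number of arrays limits the precision.

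All 35 members are named, and of the marker lists the defining markers. Of the other pathway lists the rule was to name up to 3 genes that passed. Sec23a, Sec24d, Sec31a, Sar1a, Sar1b, Golgb1 and Ero1b did not pass between groups and were named outside that rule, all with negative differences. Sec13 and Sec24a, which did not go down, were named beside them. The members and lists were chosen with earlier results of these data known. The slopes on the acinar and β-cell scores were added after seeing the data. Replicate numbers recur in the groups, but same-number arrays correlated at −0.39 to 0.36 after group means were removed, so no pairing was used. No 2 arrays were identical (r 0.948 to 0.993). Alternatives changed the scaling, normalization, filter, clusters, eBayes settings, array weights, covariates, block and arrays.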

Additional observations from a re-analysis of the deposited data

Results flagged for a closer look

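In 105 groups of 4 or 5 arrays (35 genes in 3 groups), 8 had an array whose gap to the nearest other exceeded Dixon's critical value at the 5% level; chance flags about 1 in 20 groups. IKK2-CA array 5 was the low array in 6 of the 8. It read 10.01 for the co-chaperone Dnajc3 (others of its group 10.55 to 10.69), 9.23 for the disulphide isomerase Pdia6 (9.63 to 9.77), 11.15 for P4hb (11.74 to 11.96) and 8.57 for Creld2 (9.16 to 9.30). For the transcription factor Xbp1 it read 11.11 (11.76 to 11.93), and for asparagine synthetase, Asns, 10.51 (11.61 to 11.90). This is the array with adipocyte genes and the lowest acinar score (−0.41), and the part of either was not tested.

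Control array 5 read 9.03 for Eif2ak3, the PERK sensor, above the 8.57 to 8.69 of the other controls. Pdx-1+/- array 4, the array with intestinal genes, read 8.37 for Wfs1, below the 8.61 to 8.64 of the others. Its β-cell score was also the lowest of its group (−0.44).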

How the results depend on the processing

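In Pdx-1+/- against control and IKK2-CA against Pdx-1+/- the count of members that passed stayed 0 in all 27 alternatives. In IKK2-CA against control it stayed 1 in 9 of the 13 alternatives that leave out no single array. It was 0 with only the 2 groups compared (limma adjusted p of Wfs1 0.057), without the 3 arrays with other tissue genes (0.112) and with the β-cell score as covariate, where Wfs1 turned to 0.0522, and it ranged from 0 to 1 without each array. With the replicate block it was 0 (Wfs1 limma adjusted p = 0.0686), though the numbers did not pair the arrays. The 11 members that rose with the acinar score, with alternatives chosen after seeing the data, became 0 with the replicate block, 0 without 2 and 0 without 3 arrays with other tissue genes, and 0 without the 2 arrays farthest from the median score. They became 7, 3 and 0 without the control, Pdx-1+/- and IKK2-CA arrays, and 0 to 13 without each array. The count of members with a slope on the β-cell score (1, rising) became 2 after quantile normalization, 2 without the 2 arrays, 6 without the 2 farthest arrays and 0 with the replicate block. It became 0 without the control, 0 without the Pdx-1+/- and 0 without the IKK2-CA arrays, and 0 to 5 without each array (5 without IKK2-CA 5, where 4 rose and 1 fell). The slope of Wfs1 stayed positive, in fits that share arrays with the fit that picked it. Fits with fewer arrays or a block have fewer degrees of freedom; other causes were not tested. The number of arrays and the cell mixture limit what can be seen.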
